A study of Homo sapiens with 16 samples.

Results

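Ephrins, Eph receptors and neuropilins were examined as a set of 10 genes among the 33937 genes of the count matrix. The set held the ephrins *EFNA1*, *EFNA4*, *EFNB1* and *EFNB2*, the Eph receptors *EPHA2*, *EPHB2*, *EPHB3* and *EPHB4*, and the neuropilins *NRP1* and *NRP2*. The genes were chosen by the low values of *EFNB2* and *NRP1* in the libraries labelled NAA40-KD (−dox). Values from those libraries therefore describe the 10 genes and are given without a test. All 10 genes were found by their Ensembl identifiers, and all 10 passed the filter on low counts in each comparison.

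The study sequenced RNA of HCT116, a widely used cell line from a human colorectal carcinoma, which stably carried a doxycycline-inducible short hairpin construct. The hairpin was either a scrambled control (SCR) or directed against *NAA40* (NAA40-KD), which encodes an N-terminal acetyltransferase of histones. Both lines were kept for 96 h with doxycycline at 1 μg/ml (+dox) or without it (−dox), which gave 16 libraries, 4 in each of 4 groups. All 4 groups carried a hairpin construct, and 1 knockdown line was sequenced against 1 scramble line, so a difference between lines cannot be told apart from an effect of the hairpin.

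Ephrins are ligands held at the cell surface, and they bind Eph receptor tyrosine kinases on a neighbouring cell. The A ephrins are anchored by a lipid and the B ephrins cross the membrane, so that contact can signal into both cells. In the intestinal epithelium, EphB receptors mark the crypt base and B ephrins the more differentiated cells, and this opposition keeps cells in place along the crypt. Neuropilins have little signalling activity of their own. They act as co-receptors with plexins for class III semaphorins and with VEGF receptors for VEGF.

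Levels are CPM, the gene's count scaled to a common library size after TMM normalization, and a fold change is given as a log2 value with its standard error (SE). *NAA40* was measured in every library as a check of the labels. Its level was 27.4 ± 1.45 CPM in SCR (+dox) and 29.4 ± 3.63 CPM in SCR (−dox) (mean ± SD, n = 4). The knockdown line had 30.3 ± 1.59 CPM under (+dox) and 11.8 ± 1.94 CPM under (−dox). The libraries labelled NAA40-KD (−dox) stood at 40.2% of SCR (−dox) (two-sided exact permutation test, p = 0.0286, which is the lower limit for 4 against 4 libraries). Those labelled NAA40-KD (+dox) stood at 111% of SCR (+dox) (exact permutation test, p = 0.0571), and at 113% without NAA40-KD (+dox) replicate 3 (exact permutation test, p = 0.0286). Leaving out any other library gave p from 0.0571 to 0.114 by the same test. The *NAA40* level was thus low under the label without doxycycline and was not low under the label with it. This goes against the labels, and the short sample names can be read the other way, so each group is called by its label and no direction is drawn from the treatment itself.

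Library depth lay between 11065606 and 13855486 counts. The library NAA40-KD (−dox) replicate 4 stood apart, since the SD over genes of its log2 deviation from its group mean was 0.658, against 0.141 to 0.278 in the other 15 libraries. The fold changes against SCR (−dox), and the counts of genes, are given with and without it. Of 7 markers of colon epithelium, 6 were expressed, among them *EPCAM* at 257 CPM or more, while *VIL1* reached at most 0.273 CPM. Because *EFNB2* and *NRP1* are also known from blood vessels, 7 endothelial markers were examined, and *PECAM1*, *CDH5*, *TEK* and *EMCN* reached at most 0.304 CPM. *ESAM* led this list at 4.78 to 9.50 CPM over the 16 libraries, and *VWF* reached up to 2.80 CPM. The summed endothelial level was 6.86 to 11.5 CPM in NAA40-KD (−dox) and 8.14 to 8.55 CPM in SCR (−dox). Of 6 fibroblast markers, 4 stayed under 1 CPM in every library, as did 5 of 5 leukocyte markers and 1 of the 3 neuronal markers found, while *COL1A1* and *SYT1* led their lists. The summed fibroblast level was 57.0 to 92.5 CPM (mean 77.5) in SCR (−dox) and 68.1 to 196 CPM (mean 106) in NAA40-KD (−dox), nearly all from its leading gene. The neuronal sum was 79.6 to 106 CPM and 58.0 to 116 CPM in these groups, also mostly from its leading gene. For colon epithelium the sum was 3812 to 4876 CPM (mean 4258) in SCR (−dox) and higher, 5136 to 11093 CPM (mean 6856), in NAA40-KD (−dox). All these sums include NAA40-KD (−dox) replicate 4. Fewer transcripts per cell and fewer expressing cells cannot be told apart in these bulk samples.

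Promoter windows were available in RefSeq (GRCh38.p14) for 9 of the 10 genes, all except *NRP1*. The windows of *EFNB2*, of its close relative *EFNB1*, and of *NRP2* are shown because *EFNB2* and *NRP2* were low in NAA40-KD (−dox), whereas *EFNB1* overlapped its control there. This overlap of *EFNB1* came through replicate 4 alone, at 39.1 CPM. Without replicate 4, *EFNB1* too lay below SCR (−dox). Each is the 250 bases before the start site, written 5′ to 3′, with matches of 6 short motifs in capitals. They lie at chr13:106535663-106535912 on the minus strand for *EFNB2*, chrX:68828771-68829020 on the plus strand for *EFNB1*, and chr2:205682251-205682500 on the plus strand for *NRP2*.
EFNB2: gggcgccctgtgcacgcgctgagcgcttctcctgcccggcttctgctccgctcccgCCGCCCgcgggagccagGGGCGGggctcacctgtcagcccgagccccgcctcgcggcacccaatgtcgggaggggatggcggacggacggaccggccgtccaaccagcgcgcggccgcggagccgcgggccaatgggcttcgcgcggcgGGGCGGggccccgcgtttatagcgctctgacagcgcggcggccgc
EFNB1: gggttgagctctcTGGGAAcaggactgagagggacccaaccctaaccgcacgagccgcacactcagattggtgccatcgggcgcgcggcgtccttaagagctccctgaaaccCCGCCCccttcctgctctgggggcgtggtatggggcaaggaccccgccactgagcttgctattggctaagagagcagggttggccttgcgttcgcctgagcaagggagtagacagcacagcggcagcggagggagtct
NRP2: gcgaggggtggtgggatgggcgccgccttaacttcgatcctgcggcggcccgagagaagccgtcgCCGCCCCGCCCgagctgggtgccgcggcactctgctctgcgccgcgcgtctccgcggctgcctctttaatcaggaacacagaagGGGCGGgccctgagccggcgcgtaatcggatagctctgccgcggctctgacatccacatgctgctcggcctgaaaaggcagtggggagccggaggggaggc
Both strands were searched for the GC box GGGCGG, the E2F core TTTNGCG, the E-box CACGTG, the hypoxia response core ACGTG (which also lies inside the E-box), the RBPJ core TGGGAA and the TCF core CTTTGA. The capitals in *EFNB2* mark 3 GC boxes, those in *NRP2* mark 3 GC boxes of which a pair overlaps, and those in *EFNB1* mark 1 GC box and 1 RBPJ core. A GC box was present in 9 of the 9 windows of the set and in 42.3% of all 27305 windows, and an RBPJ core was present in 21.1% of them. *EFNA4* held 1 E2F core and *EPHA2* 1 TCF core, and the other motifs had no match in the 9 windows. The E2F core was found in 4.38% of all windows, the E-box in 6.49%, the hypoxia response core in 18.7% and the TCF core in 11.4%. The *EFNB2* window held 78.4% G and C and the 9 windows 58.4% to 84.8%, against a median of 58.0% over all windows. The GC box consists of G and C only, and its share was not compared at equal G and C content. A match says only that these letters are present.

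Per kilobase of exon, *EPHA2*, a receptor of A ephrins, was the most highly expressed of the 10 genes in SCR (−dox), at 82.5 ± 13.1 CPM per kb. *EPHB4*, which binds ephrin-B2, followed at 15.1 ± 1.53 CPM per kb. *EFNB2* (10.2 ± 1.03), *EFNB1* (8.58 ± 1.30) and *EFNA1* (8.21 ± 1.12) came next, and the libraries of each overlapped those of its neighbour in this order. *EPHB2* (3.90 ± 0.376), *EFNA4* (3.17 ± 0.670) and *EPHB3* (2.37 ± 0.498) followed, and each overlapped with the next gene in order, *EPHB3* with *NRP1* (1.60 ± 0.352). *NRP2* was the lowest, at 0.253 ± 0.0189 CPM per kb, and did not overlap with *NRP1*. In NAA40-KD (−dox) the level per kb of *EFNB2* was 3.05 ± 0.311, under the 7.44 ± 2.91 of *EFNB1*, and that of *NRP1* was 0.216 ± 0.0734.

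*EFNB2* encodes ephrin-B2, a transmembrane ligand of EphB receptors, and lies at chr13:106489731-106535662 (GRCh38, minus strand). Its level was 46.0, 44.1, 43.3 and 51.5 CPM in the 4 SCR (+dox) libraries. In SCR (−dox) it was 44.1, 55.5, 54.3 and 49.9 CPM, and in NAA40-KD (+dox) 42.0, 39.9, 41.0 and 44.0 CPM. In NAA40-KD (−dox) it was 13.4, 16.8, 16.3 and 14.7 CPM. The 12 libraries of the other groups lay at 39.9 CPM or above, and the 4 libraries of NAA40-KD (−dox) lay at 16.8 CPM or below. NAA40-KD (−dox) stood at −1.73 (SE 0.15) relative to SCR (−dox) on the log2 scale, and at −1.44 (SE 0.13) relative to NAA40-KD (+dox). Without NAA40-KD (−dox) replicate 4 these values were −1.72 (SE 0.12) and −1.43 (SE 0.09).

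In the comparison that did not choose the genes, NAA40-KD (+dox) against SCR (+dox), *EFNB2* differed by −0.15 (SE 0.09; 95% interval −0.34 to 0.05), with an adjusted p of 0.256 by edgeR's quasi-likelihood test, Benjamini-Hochberg adjusted. The *EFNB2* libraries of both groups overlapped there. In scramble cells, SCR (+dox) against SCR (−dox), *EFNB2* differed by −0.14 (SE 0.11; 95% interval −0.38 to 0.09). The difference between the line effect under (−dox) and under (+dox) was −1.59 (SE 0.16) on the log2 scale, and −1.57 (SE 0.14) without NAA40-KD (−dox) replicate 4.

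**Figure D1:**
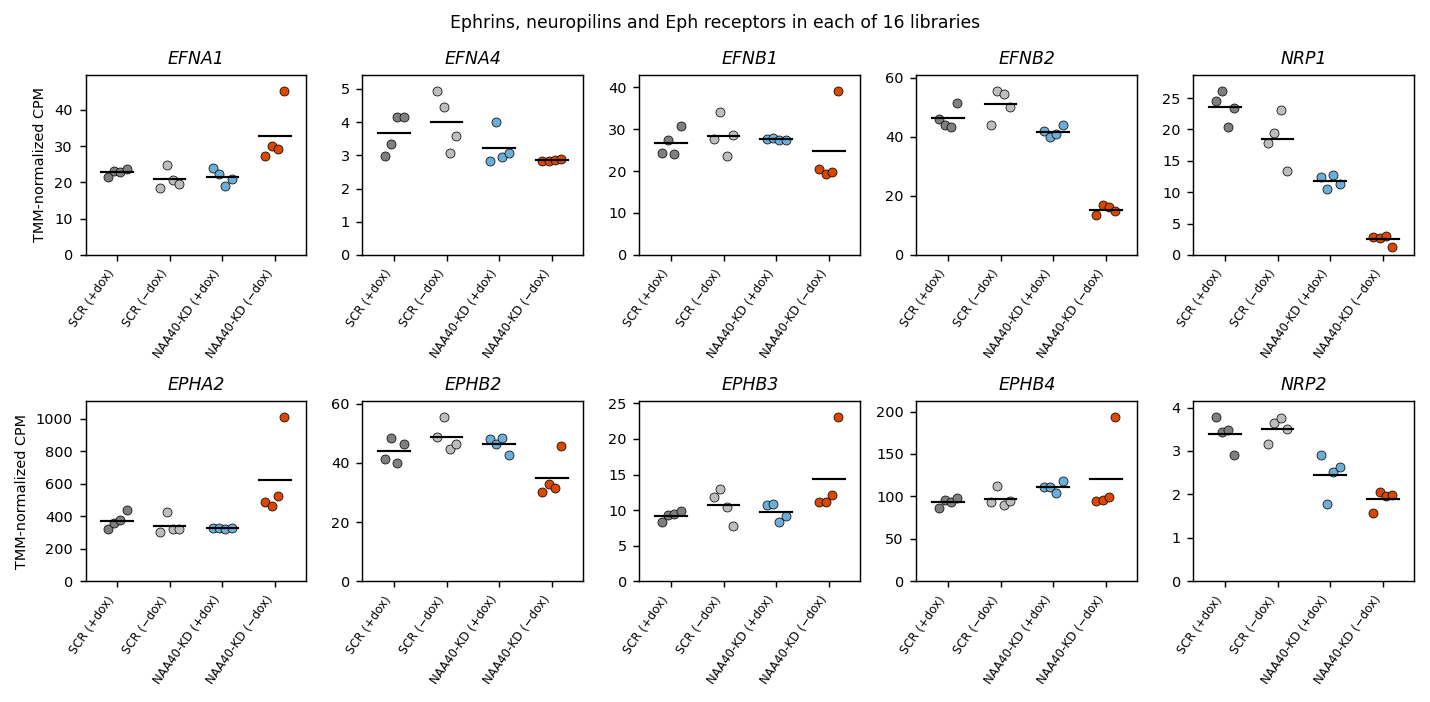
Levels of the 10 genes in TMM-normalized CPM (vertical axis, from 0, a separate scale for each gene) in the 4 libraries of each group (points, in the order of replicate number), with the group mean as a bar. *EFNB2* and *NRP1* in NAA40-KD (−dox) lie below all other libraries, at 16.8 and 3.06 CPM or less, while replicate 4 of NAA40-KD (−dox) is high for *EPHA2*, *EPHB3*, *EPHB4*, *EFNA1* and *EFNB1*.

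*EFNB1* encodes ephrin-B1, the other transmembrane ligand of the set, and lies at chrX:68828997-68842147. Its level was 27.6, 34.0, 23.6 and 28.6 CPM in SCR (−dox) and 20.5, 19.3, 19.7 and 39.1 CPM in NAA40-KD (−dox). Replicates 1 to 3 of NAA40-KD (−dox) lay below every SCR (−dox) library, and replicate 4 lay above them. The log2 difference was −0.19 (SE 0.26) with all libraries and −0.52 (SE 0.12) without replicate 4. In NAA40-KD (+dox) the level was 27.3 to 28.0 CPM, within the 24.1 to 30.7 CPM of SCR (+dox), with a log2 difference of 0.05 (SE 0.10; 95% interval −0.17 to 0.27).

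*EFNA1* encodes ephrin-A1, a lipid-anchored ligand of EphA2, and lies at chr1:155127460-155134857. Its level was 18.4, 24.9, 20.7 and 19.4 CPM in SCR (−dox) and 27.2, 30.0, 29.1 and 45.2 CPM in NAA40-KD (−dox). All 4 NAA40-KD (−dox) libraries were above all SCR (−dox) libraries. The log2 difference was 0.67 (SE 0.20), and 0.46 (SE 0.11) without replicate 4. *EFNA4*, at chr1:155063731-155069553, encodes another A ephrin and was weakly expressed, with 31 to 58 counts per library. The exons of *EFNA4* overlap those of *AL691442.1* on the same strand, so its counts are uncertain. *EFNA4* measured 4.94, 4.45, 3.06 and 3.58 CPM in SCR (−dox) and 2.84, 2.81, 2.85 and 2.88 CPM in NAA40-KD (−dox). These groups did not overlap, although the lowest SCR (−dox) library, at 3.06 CPM, was close to the highest NAA40-KD (−dox) library, at 2.88 CPM. The log2 difference was −0.48 (SE 0.21), and −0.50 (SE 0.22) without replicate 4. Under (+dox) the log2 difference between lines was −0.08 (95% interval −0.30 to 0.13) for *EFNA1* and −0.19 (95% interval −0.59 to 0.21) for *EFNA4*.

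*EPHA2*, at chr1:16124337-16156087 on the minus strand, is the receptor that binds ephrin-A1. Its level was 305, 424, 320 and 323 CPM in SCR (−dox) and 486, 465, 523 and 1011 CPM in NAA40-KD (−dox). All 4 NAA40-KD (−dox) libraries were higher, and replicate 4 stood far above the other 3. The log2 difference was 0.87 (SE 0.27), and 0.51 (SE 0.11) without replicate 4. In SCR (+dox) the level was 321, 359, 375 and 436 CPM and in NAA40-KD (+dox) 330, 325, 322 and 327 CPM. These groups overlapped, with a log2 difference of −0.19 (SE 0.09; 95% interval −0.39 to −0.000335) and an adjusted p of 0.134 (edgeR's quasi-likelihood test, Benjamini-Hochberg adjusted). With each of the 8 libraries left out in turn, the adjusted p ran from 0.0485, without SCR (+dox) replicate 1, to 0.306. Over all alternatives it was at most 0.652.

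*EPHB2* and *EPHB3* encode receptors of B ephrins and are known Wnt targets of the intestinal crypt. *EPHB2*, at chr1:22710839-22921500, measured 48.8, 55.4, 44.7 and 46.4 CPM in SCR (−dox) and 30.2, 32.9, 31.5 and 45.5 CPM in NAA40-KD (−dox). Replicate 4 alone reached into the range of SCR (−dox). Its log2 difference was −0.47 (SE 0.18), and −0.63 (SE 0.10) without replicate 4. *EPHB3*, at chr3:184561784-184582409, measured 11.8, 13.0, 10.4 and 7.76 CPM in SCR (−dox) and 11.2, 11.2, 12.2 and 23.1 CPM in NAA40-KD (−dox). The groups overlapped, and the log2 difference of 0.44 (SE 0.28) was 0.10 (SE 0.16) without replicate 4. Under (+dox) the log2 difference between lines was 0.07 (95% interval −0.13 to 0.27) for *EPHB2* and 0.08 (95% interval −0.20 to 0.36) for *EPHB3*.

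*EPHB4*, at chr7:100802565-100827521 on the minus strand, encodes the receptor that pairs with ephrin-B2 between veins and arteries. Its level was 85.9, 95.8, 93.1 and 97.8 CPM in SCR (+dox) and 111, 111, 104 and 119 CPM in NAA40-KD (+dox). All NAA40-KD (+dox) libraries were higher, by 0.25 on the log2 scale (SE 0.08), with an adjusted p of 0.0358 by edgeR's quasi-likelihood test, Benjamini-Hochberg adjusted. The adjusted p rose above 0.05 when any of 4 libraries was left out, namely SCR (+dox) replicate 1 or NAA40-KD (+dox) replicate 1, 2 or 4 (range over the 8 libraries left out, 0.0198 to 0.118). It was 0.104 without the filter on low counts and 0.485 when all 16 libraries shared a fit. In NAA40-KD (−dox), *EPHB4* measured 94.9, 95.9, 98.9 and 193 CPM against 90.3 to 112 CPM in SCR (−dox). The sign of this difference rested on replicate 4, with 0.32 (SE 0.25) on the log2 scale with it and −0.015 (SE 0.089) without it. The exons of *EPHB4* overlap those of *SLC12A9* on the other strand, whose counts reached up to 39.7% of those of *EPHB4*.

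**Figure D2:**
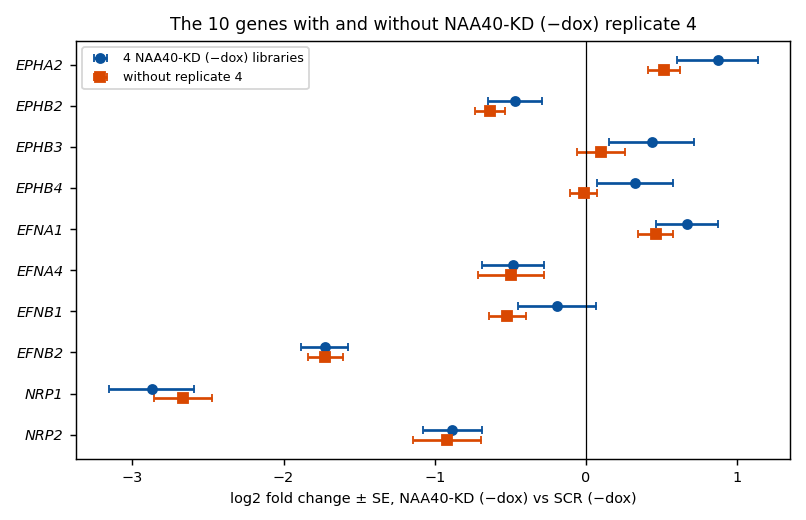
Log2 fold change of NAA40-KD (−dox) against SCR (−dox) for the 10 genes (horizontal axis, points with SE), with all 4 NAA40-KD (−dox) libraries (circles) and without replicate 4 (squares). *EFNB2* goes from −1.73 to −1.72 and *NRP1* from −2.87 to −2.66, while *EPHB4* goes from 0.32 to −0.015 and *EFNB1* from −0.19 to −0.52.

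*NRP1*, at chr10:33177492-33336262 on the minus strand, encodes a co-receptor for class III semaphorins, semaphorin 3A among them, and for VEGF. Its level was 24.5, 26.1, 20.3 and 23.5 CPM in SCR (+dox) and 17.9, 19.4, 23.1 and 13.3 CPM in SCR (−dox). In NAA40-KD (+dox) it was 12.4, 10.5, 12.8 and 11.2 CPM, and in NAA40-KD (−dox) 2.91, 2.74, 3.06 and 1.24 CPM. These last values rest on 39, 36, 42 and 15 counts. The level was highest in the scramble groups, which overlapped each other, lower in all NAA40-KD (+dox) libraries, and lowest in NAA40-KD (−dox).

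Between the libraries labelled (+dox), where *NAA40* was not lower in the knockdown line, *NRP1* was lower in 4 of 4 NAA40-KD libraries. Its log2 difference was −1.01 (SE 0.12; 95% interval −1.25 to −0.77), or 49.6% of SCR (+dox), with an adjusted p of 6.8e-06 by edgeR's quasi-likelihood test, Benjamini-Hochberg adjusted. Over all alternatives the adjusted p was 0.00415 or lower, and the log2 difference ran from −1.08 to −0.96. In NAA40-KD (−dox), *NRP1* stood at −2.87 (SE 0.28) relative to SCR (−dox) and at −2.22 (SE 0.25) relative to NAA40-KD (+dox). Without replicate 4 the first value was −2.66 (SE 0.19), and *NRP1* was then at 24.9% of NAA40-KD (+dox). The difference between the line effects under both labels was −1.87 (SE 0.29), and −1.65 (SE 0.23) without replicate 4. In scramble cells *NRP1* was 0.35 higher on the log2 scale in SCR (+dox) than in SCR (−dox) (SE 0.15; 95% interval 0.04 to 0.67; edgeR's quasi-likelihood test, unadjusted p = 0.0296, Benjamini-Hochberg adjusted p = 1.00).

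*NRP2*, at chr2:205681990-205798133, encodes the neuropilin better known from lymphatic vessels and semaphorin 3F, and was weakly expressed, with 21 to 49 counts per library. It measured 3.15, 3.65, 3.75 and 3.50 CPM in SCR (−dox) and 1.57, 2.05, 1.97 and 1.98 CPM in NAA40-KD (−dox). All 4 NAA40-KD (−dox) libraries were lower, with a log2 difference of −0.88 (SE 0.20), and −0.92 (SE 0.23) without replicate 4. In NAA40-KD (+dox) it measured 2.91, 1.78, 2.51 and 2.63 CPM, against 3.78, 3.43, 3.49 and 2.91 CPM in SCR (+dox). The difference of −0.47 (SE 0.20; 95% interval −0.90 to −0.05) had an adjusted p of 0.0948 by edgeR's quasi-likelihood test, Benjamini-Hochberg adjusted. The groups touched at 2.91 CPM, which was the highest NAA40-KD (+dox) and the lowest SCR (+dox) value.

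**Figure D3:**
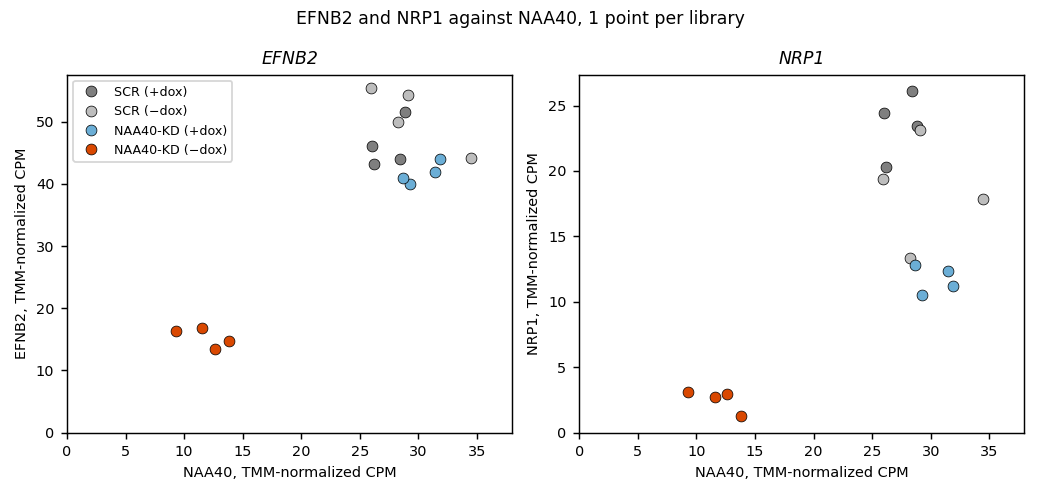
*EFNB2* (left) and *NRP1* (right) against *NAA40*, all in TMM-normalized CPM, with 1 point for each of 16 libraries coloured by group. Libraries of NAA40-KD (+dox) have *NAA40* between 28.7 and 31.9 CPM, with *EFNB2* between 39.9 and 44.0 CPM and *NRP1* between 10.5 and 12.8 CPM.

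Over the set, NAA40-KD (+dox) against SCR (+dox) gave an adjusted p under 0.05 for 2 of the 10 genes, *NRP1* lower and *EPHB4* higher (edgeR's quasi-likelihood test, Benjamini-Hochberg adjusted), while 24.5% of the 13869 genes tested passed. An absolute log2 difference above 1 was also reached by 1 of the 10, *NRP1*, and by 2.15% of all genes. The *NRP1* difference stayed below 1 in size under library-size scaling and when SCR (+dox) replicate 1 or 2 or NAA40-KD (+dox) replicate 2 or 4 was left out. The groups did not overlap for 2 of the 10 genes and for 27.0% of all genes. The count of the set at an adjusted p under 0.05 was therefore near that of genes in general. The median log2 difference was −0.12 in the set and −0.0043 over all genes.

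SCR (+dox) against SCR (−dox), whose control group was also the control in the choice of the genes, gave an adjusted p under 0.05 for 0 of the 10 genes (edgeR's quasi-likelihood test, Benjamini-Hochberg adjusted, and DESeq2 and limma-voom each gave 0). Of all 13882 genes tested, 0% passed, and 271 had an unadjusted p under 0.05, among them *NRP1*, while the fit without a filter on low counts called 1 gene. The groups did not overlap for 0 of the 10 genes and for 1.58% of all genes. The median log2 difference was −0.082 in the set and −0.0016 over all genes.

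For the set as a whole, the comparisons that chose the genes are given as counts, without a test. NAA40-KD (−dox) and SCR (−dox) did not overlap for 6 of the 10 genes, with *EFNB2*, *NRP1*, *NRP2* and *EFNA4* lower and *EFNA1* and *EPHA2* higher, beside 21.8% of all genes. Without replicate 4 they did not overlap for 8 genes, since *EFNB1* and *EPHB2* then lay below SCR (−dox), beside 41.3% of all genes. NAA40-KD (−dox) and NAA40-KD (+dox) did not overlap for 5 genes, with *EFNB2* and *NRP1* lower and *EFNA1*, *EPHA2* and *EPHB3* higher, beside 29.7% of all genes. Without replicate 4 they did not overlap for 8 genes, beside 51.6% of all genes, as *EFNB1*, *EPHB2* and *EPHB4* were then lower. Both comparisons share the NAA40-KD (−dox) libraries.

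**Figure D4:**
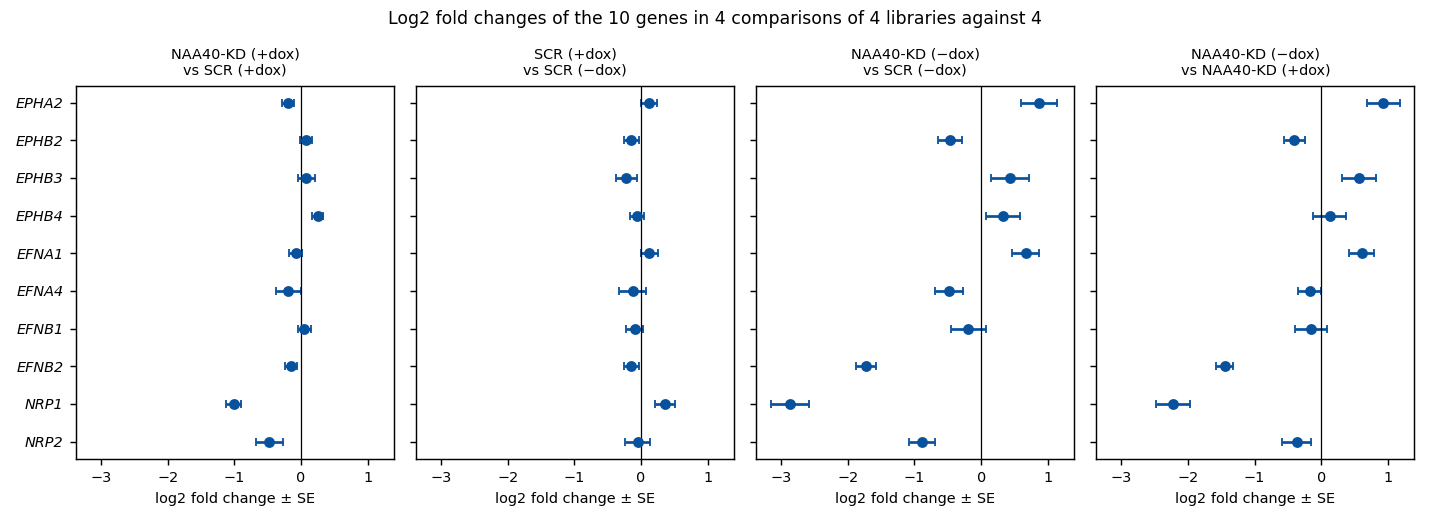
Log2 fold changes of the 10 genes (points with SE) in the 4 comparisons of 4 libraries against 4. In SCR (+dox) against SCR (−dox) the values lie between −0.22 and 0.35, and *NRP1* is at −1.01 in NAA40-KD (+dox) against SCR (+dox) and at −2.87 in NAA40-KD (−dox) against SCR (−dox).

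Partners of these proteins were examined in 6 lists of 66 genes, of which 59 were found in the matrix. Between the (+dox) groups, 15 of the 47 that passed the filter had an adjusted p under 0.05 (edgeR's quasi-likelihood test, Benjamini-Hochberg adjusted), 4 higher and 11 lower, beside 24.5% of all genes. The median log2 difference over the 47 was −0.024. Among other ephrins and Eph receptors, *EFNA3* (0.48, SE 0.15, adjusted p = 0.0263) and *EPHA4* (0.65, SE 0.14, adjusted p = 0.00307) were higher and *EPHA1* (−0.48, SE 0.10, adjusted p = 0.0018) was lower. The call for *EFNA3* was lost when any of 6 of the 8 libraries was left out. Its exons overlap those of *AL691442.1* on the same strand, as for *EFNA4*. Those of *EPHA1* overlap *ZYX* and those of *EPHA4* overlap *AC079834.2*, each on the other strand.

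The counts for each list in this comparison stand beside 24.5% of all 13869 genes that passed the same threshold. Of 10 neuropilin ligands 2 were lower in NAA40-KD (+dox) and none higher. They were *SEMA3A*, a semaphorin that *NRP1* binds (−0.49, SE 0.11), and *VEGFA* (−0.30, SE 0.08). *VEGFA* no longer passed when NAA40-KD (+dox) replicate 2 was left out. Of 6 co-receptors 2 were lower, the adhesion molecule *L1CAM* (−0.57, SE 0.14) and *GIPC1*, which binds the neuropilin tail (−0.47, SE 0.12). Of 17 effectors of Eph and ephrin signalling 5 were lower and 1 higher. *FYN*, a Src family kinase that acts downstream of B ephrins, was lower by the most (−1.03, SE 0.13, adjusted p = 2.0e-05), from 17.0 to 19.2 CPM in SCR (+dox) to 6.97 to 10.9 CPM in NAA40-KD (+dox). The kinase *ABL2* (−0.60, SE 0.13) and *NGEF*, which encodes the exchange factor ephexin (−0.56, SE 0.11), were lower as well. Of 8 genes of the Notch pathway, *DLL4* was lower (−0.84, SE 0.18) and *NOTCH1* higher (0.46, SE 0.10). When all 16 libraries shared a fit, 3 genes of these lists passed, *FYN* and *ABL2* among them.

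Between the (−dox) groups, 2 of 50 partner genes passed, beside 6.42% of all genes. *MMP14*, a membrane protease, was higher (1.24, SE 0.29, adjusted p = 0.0383), and *TIAM1*, a Rac activator recruited by Eph receptors and B ephrins, was lower (−0.85, SE 0.13, adjusted p = 0.00797, edgeR's quasi-likelihood test, Benjamini-Hochberg adjusted). *TIAM1* measured 70.5 to 83.1 CPM in SCR (−dox) and 39.9 to 44.6 CPM in NAA40-KD (−dox). Without NAA40-KD (−dox) replicate 4, 16 of 50 passed, 6 higher and 10 lower, beside 36.5% of all genes, with *MMP14* at 0.87 (SE 0.14) and *TIAM1* at −0.83 (SE 0.09). The call for *MMP14* was lost when any of the 4 SCR (−dox) libraries, or NAA40-KD (−dox) replicate 1 or 2, was left out.

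In NAA40-KD (−dox) against NAA40-KD (+dox), 5 of 49 partner genes passed, beside 10.2% of all genes. *MMP14* (1.29, SE 0.29) and *ABL2* (1.16, SE 0.16) were higher, and *TIAM1* (−0.42, SE 0.11) and the Notch target *HES1* (−0.77, SE 0.15) were lower. The fifth, *EPHA8*, passed the filter on low counts only through NAA40-KD (−dox), at 1.12 to 3.38 CPM against 0.517 to 0.854 CPM, so its call is not read as a difference. Without replicate 4, *MMP14* was at 0.94 (SE 0.13) and *ABL2* at 1.29 (SE 0.06). The call for *MMP14* was lost when any of the 4 NAA40-KD (+dox) libraries, or NAA40-KD (−dox) replicate 1, was left out. The call for *HES1* was lost without NAA40-KD (+dox) replicate 1 or 4, and that for *TIAM1* without any library other than NAA40-KD (−dox) replicate 4. Without replicate 4, 27 of 48 passed, 14 higher and 13 lower, beside 52.4% of all genes.

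The line effect differed between the labels (−dox) and (+dox) for 4 of 51 partner genes, beside 9.22% of all genes (interaction term, edgeR's quasi-likelihood test, Benjamini-Hochberg adjusted). It was more positive under (−dox) for *SEMA3C*, a class III semaphorin (0.90, SE 0.26, adjusted p = 0.0394), *MMP14* (1.25, SE 0.34, adjusted p = 0.0272) and *ABL2* (1.09, SE 0.22, adjusted p = 0.00651), and more negative for *TIAM1* (−0.52, SE 0.15, adjusted p = 0.0403). *ABL2* passed with each library left out in turn, the call for *MMP14* was kept in 10 of these 16 fits, and those for *SEMA3C* and *TIAM1* were lost in most of them. Without replicate 4 the values were 1.11 (SE 0.12) for *SEMA3C*, 0.91 (SE 0.21) for *MMP14*, 1.22 (SE 0.16) for *ABL2* and −0.49 (SE 0.13) for *TIAM1*, and 12 of 51 passed, beside 24.2% of all genes.

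**Figure D5:**
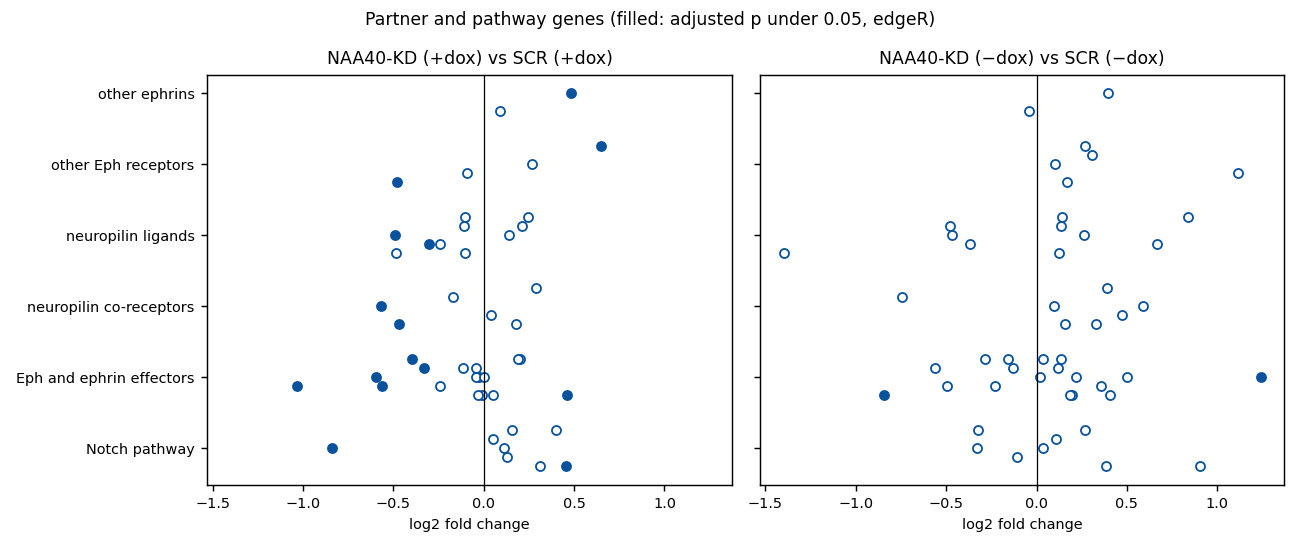
Log2 fold changes of partner and pathway genes (points, 1 gene each) by list, for NAA40-KD (+dox) against SCR (+dox) (left) and NAA40-KD (−dox) against SCR (−dox) (right), with filled points for an adjusted p under 0.05. Filled points number 15 of 47 on the left and 2 of 50 on the right, and the lowest filled point on the left is *FYN* at −1.03.

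Genes whose centred log2 levels over the 16 libraries were nearest to *EFNB2* were sought among 11122 others. *GINS3*, of the replication complex GINS, was the nearest, with a root mean square difference of 0.17, followed by the gap junction gene *GJB2* (0.20) and by *JPT2* (0.21). *GINS3* averaged 17.2 CPM in SCR (−dox) and 5.32 CPM in NAA40-KD (−dox). The nearest to *NRP1* were *SLC7A11*, the cystine transporter (0.35), *MYH15* (0.36) and *NT5E*, the enzyme that makes extracellular adenosine (0.38). *NT5E* averaged 241 CPM in SCR (+dox) and 226 CPM in SCR (−dox), against 130 CPM under (+dox) and 52.1 CPM under (−dox) in the knockdown line, so that NAA40-KD (+dox) lay between the other groups as for *NRP1*. *EFNB2* was the gene of rank 15 for *NRP1*, whereas *NRP1* was of rank 1947 for *EFNB2*. These distances use the libraries that chose both genes and are a description.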

How the data were processed

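RNA was taken from HCT116 lines with an inducible hairpin, as 4 independent RNA samples per group, and p-values cover the spread between these samples. The deposited values were raw counts of reads per gene, which the authors made with STAR and featureCounts, with a strand setting that is not given in the sources used here. Counts of genes with overlapping exons are therefore uncertain. Besides *EFNA3*, *EFNA4* and *EPHB4*, the exons of *L1CAM* overlap those of a gene on the same strand and of another on the other strand. Those of *EFNB2*, *EPHB2*, *NRP1*, *NRP2*, *EPHA1*, *EPHA4*, *VEGFA* and *NGEF* overlap genes on the other strand. The methods name a mouse genome build, whereas all 33937 identifiers are human Ensembl identifiers. Symbols and coordinates came from GENCODE 29 (GRCh38).

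Counts were normalized by TMM and tested in R 4.3.3 with edgeR 4.0.16 (quasi-likelihood F test, robust, two-sided), with Benjamini-Hochberg adjustment over all genes that had more than 1 CPM in at least 4 libraries. Each comparison was fitted on its own groups, and the interaction on all 16 libraries. Adjusted p under 0.05 was the threshold, and the SE was derived from the F statistic. Between pairs of libraries within a group, the chi-square of counts divided by its degrees of freedom ran from 1.74 to 140. Sampling noise alone gives a value near 1. DESeq2 1.42.0, limma 3.58.1 (voom), library-size scaling, other filters, a replicate block, a joint fit and leaving out each library were the alternatives. The text names all 10 members, *NAA40*, up to 3 genes per partner list and comparison (largest absolute log2 fold change among those past the threshold with at least 1 CPM in a group) and the 3 genes nearest in pattern to *EFNB2* and *NRP1* (mean of at least 5 CPM). Members and lists were chosen with earlier results of these data known. Of the genes listed as partners or markers, 9 were not found by symbol and were not analysed here. The fit of NAA40-KD (+dox) against SCR (+dox) was tried on simulated data. The simulation did not cover the other comparisons and held no library like NAA40-KD (−dox) replicate 4.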

Additional observations from a re-analysis of the deposited data

Results flagged for a closer look

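For 11 genes, the members of the set and *NAA40*, the levels in each of the 4 groups were examined, which gave 44 sets of 4 values. A library was looked for whose gap to its nearest neighbour, as a share of the whole range, exceeded Dixon's limit. Chance passes this limit in about 1 in 20 independent sets. The 44 sets came from the same 16 libraries and were not independent, so the number flagged is not compared with that rate. The search flagged 7 libraries, counted for each gene separately. Of these, 5 were NAA40-KD (−dox) replicate 4, which was the highest of its group for *EPHB4* (gap 0.960 of the range, 193 CPM against 98.9 in the nearest library), *EFNB1* (0.939, 39.1 against 20.5 CPM), *EPHB3* (0.916, 23.1 against 12.2 CPM), *EPHA2* (0.893, 1011 against 523 CPM) and *EFNA1* (0.845, 45.2 against 30.0 CPM). SCR (−dox) replicate 2 was the highest of its group for *EPHA2* (0.846, 424 against 323 CPM) and for *EPHB4* (0.830, 112 against 94.0 CPM).

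The line effect differed between the labels (−dox) and (+dox) by the interaction term for *SEMA3C* (0.90 on the log2 scale), *MMP14* (1.25), *ABL2* (1.09) and *TIAM1* (−0.52), with 1.11, 0.91, 1.22 and −0.49 without NAA40-KD (−dox) replicate 4. With a library left out, the call was kept in 1, 10, 16 and 3 of 16 fits, in the same order. *SEMA3C* did not pass by limma-voom (adjusted p = 0.0667) or with library-size scaling (edgeR, 0.0524), nor *TIAM1* without the filter on low counts (edgeR, 0.277). For *EPHA2* the effect was 1.05 higher under (−dox), or 0.72 without NAA40-KD (−dox) replicate 4, and every NAA40-KD (+dox) library lay below the SCR (+dox) mean while every NAA40-KD (−dox) library lay above the SCR (−dox) mean. This difference was not tested, since *EPHA2* belongs to the genes chosen on these libraries.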

How the results depend on the processing

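In NAA40-KD (+dox) against SCR (+dox), the sign held for all 10 members in 150 of 150 alternative fits. The number of members with an adjusted p under 0.05 was 1 without the filter on low counts and 1 with all 16 libraries in a fit, and 1 to 2 with a library left out. The number that also passed the fold threshold was 0 under library-size scaling and 0 to 1 with a library left out. Partner genes passing numbered 3 with all 16 libraries. In NAA40-KD (−dox) against SCR (−dox), partner genes passing numbered 6 by DESeq2, 5 without the filter, 0 with the replicate block, 12 with all 16 libraries, and 1 to 16 with a library left out (1 without any SCR (−dox) library or NAA40-KD (−dox) replicate 2, 16 without NAA40-KD (−dox) replicate 4). In NAA40-KD (−dox) against NAA40-KD (+dox) they numbered 9 by DESeq2, 12 with all 16 libraries, and 1 to 27 with a library left out (1 or 2 without any NAA40-KD (+dox) library, 3 without NAA40-KD (−dox) replicate 1, 2 or 3, and 27 without replicate 4). For the interaction they numbered 1 to 12 with a library left out, with 12 without NAA40-KD (−dox) replicate 4. Over all genes, 892 calls in NAA40-KD (−dox) against SCR (−dox) became 82 with the replicate block, 1914 by DESeq2, 2951 with all 16 libraries and 5021 without replicate 4. The 1414 calls against NAA40-KD (+dox) became 777, 2526, 3210 and 7183. The 3402 calls between the (+dox) groups became 966 with all 16 libraries, and the 1327 interaction calls became 3467 without replicate 4. *EPHB4* changed sign without NAA40-KD (−dox) replicate 4, to −0.015 against SCR (−dox) (−0.015 to 0.43 with a library left out) and to −0.20 against NAA40-KD (+dox) (−0.20 to 0.23). *NAA40* in NAA40-KD (+dox) was 109% to 113% of SCR (+dox) with a library left out. The members whose groups did not overlap between NAA40-KD (−dox) and NAA40-KD (+dox) went from 5 to 8 without replicate 4, a setting chosen after seeing the data. The cause of these shifts was not tested. Same-numbered libraries correlated from −0.469 to 0.271, and libraries of different number from −0.514 to 0.588. In NAA40-KD (−dox) against NAA40-KD (+dox), 3 same-numbered pairs were above 0.1, and no comparison was above 0.1 in every pair. Whether same-numbered samples were paired cannot be told from these values. With the replicate block, adjusted p (edgeR) was 0.130 for *MMP14* and 0.0802 for *TIAM1* between the (−dox) groups, and for *TIAM1* 0.134 against NAA40-KD (+dox) and 0.0583 for the interaction. Low counts limit *NRP2*, *EFNA4* and, in NAA40-KD (−dox), *NRP1*.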
